A study of Mus musculus with 2 samples.

Results

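Mir214 and the miR-199 genes Mir199b, Mir199a-2 and Mir199a-1 are the 4 microRNA genes that lie antisense to the dynamin genes of the mouse. They were taken by name, by matching the Ensembl identifiers of the count tables to GENCODE symbols, and make up 4 of the 1973 gene rows. Their levels come from small RNA sequencing of whole limbs of B6NCrl mouse embryos, labelled healthy and with no treatment named, at 12.5 days, with male and female embryos pooled and RNA below 30 nucleotides sequenced. Replicate 1 pooled limbs of 88 embryos and replicate 2 limbs of 68. Both libraries belong to 1 group, so the design holds no contrast between conditions. The comparison made here sets Mir214, which has no second copy among the hairpins, against the 3 copies of miR-199.

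A microRNA is cut from a hairpin in a longer transcript, and 1 arm of the hairpin, or both, is loaded into an Argonaute protein. Bases 2 to 8 of the loaded strand, the seed, pair with target messenger RNAs and lower their translation or stability. In mouse, miR-199a and miR-214 are made together from the long non-coding RNA Dnm3os, which is transcribed in mesenchyme and in the forming skeleton and whose loss disturbs skeletal growth. The polycomb gene Ezh2 is a known target of miR-214 in mouse muscle precursors, and the BMP signal carrier Smad1 is one of miR-199a in early cartilage differentiation.

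The 4 genes differ in how much of their sequence is their own. The mature strands below are those of RefSeq on GRCm38.p6, in which all 4 members had a hairpin, and the capitals mark the seed. The third sequence is the stretch of the Mir199b hairpin that lines up with miR-199a-5p.
miR-199a-5p of Mir199a-1 and Mir199a-2: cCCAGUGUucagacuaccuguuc
miR-199a-3p of Mir199a-1 and Mir199a-2, also listed as miR-199b-3p of Mir199b: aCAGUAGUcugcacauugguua
Stretch of Mir199b: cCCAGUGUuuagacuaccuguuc
miR-214-5p of Mir214: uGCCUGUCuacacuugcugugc
miR-214-3p of Mir214: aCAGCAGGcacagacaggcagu
The 3p strand of miR-199 is thus the same molecule from 3 genes. The 5p strand of both Mir199a genes is also identical, and Mir199b departs from it by 1 substitution, C10U, counted from 1 at the 5′ end of miR-199a-5p and outside the seed. By seed, the 5p strands form 1 group, the 3p strands of miR-199 a second, and each strand of Mir214 stands in a group apart from both. Of all mature strands in the RefSeq table, Mir761 alone outside the 4 genes shares a seed with a member, CAGCAGG of miR-214-3p, and it had 0 counts in both libraries.

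The full hairpins are shown so that the shared and the separate sequence of the copies can be seen. Capitals mark the arms listed above, and in Mir199b the first block of capitals is the aligned stretch.
Mir214, chr1:162223368-162223477, plus strand: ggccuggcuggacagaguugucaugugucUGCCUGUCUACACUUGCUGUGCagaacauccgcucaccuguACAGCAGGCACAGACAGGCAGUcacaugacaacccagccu
Mir199b, chr2:32318460-32318569, plus strand: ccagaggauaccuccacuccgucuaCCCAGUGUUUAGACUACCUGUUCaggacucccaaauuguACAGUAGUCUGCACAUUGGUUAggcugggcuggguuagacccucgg
Mir199a-2, chr1:162217814-162217923, plus strand: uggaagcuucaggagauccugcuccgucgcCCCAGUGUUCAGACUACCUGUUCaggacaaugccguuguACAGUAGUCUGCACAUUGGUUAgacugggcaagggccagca
Mir199a-1, chr9:21496495-21496564, minus strand: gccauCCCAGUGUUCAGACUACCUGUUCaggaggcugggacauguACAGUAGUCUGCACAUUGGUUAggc
Aligned over the shorter hairpin of 70 bases, Mir199a-1 matched Mir199a-2 at 58 bases and Mir199b at 60. Mir199b and Mir199a-2, of 110 bases each, matched at 84. The longest stretch that Mir214 shared with any miR-199 hairpin was 7 bases.

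Identity between the copies ran past the mature strands. Around miR-199a-5p, Mir199a-1 and Mir199a-2 stayed identical for 4 bases after the 3′ end and differed at the first base before the 5′ end, a shared stretch of 27 bases. Around the 3p strand they shared 26 bases, with 3 before it and 1 after it. Mir199b shared 27 bases around the 3p strand with Mir199a-2 and 28 with Mir199a-1, the last of these running to the annotated end of the Mir199a-1 hairpin. A full-length 3p read of miR-199 therefore matched all 3 hairpins unless it reached past these stretches, and a full-length miR-199a-5p read matched both Mir199a hairpins.

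Windows of 20 nucleotides, slightly shorter than the mature strands, put a number on this. Read lengths are not in the tables, and the shares of own windows depend on the window's length. In Mir214 all 91 windows occurred in no other of the 1005 RefSeq microRNA hairpins. In Mir199b 81 of 91 windows were its own, in Mir199a-2 75 of 91 and in Mir199a-1 34 of 51. In neither Mir199a gene did an own window lie wholly within a mature strand. In Mir199a-1 every window overlapped a mature strand, so its own windows reached past the end of one. With each mature strand widened by 2 bases on either side, all 8 windows over the 5p stretch of Mir199b were its own, against 2 of 8 for each Mir199a gene. Over the 3p strand 1 of 7 windows was the gene's own in Mir199a-2, and 0 of 7 in Mir199a-1 and in Mir199b. Over the strands of Mir214 all 7 windows were its own on the 5p side and all 7 on the 3p side.

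**Figure D1:**
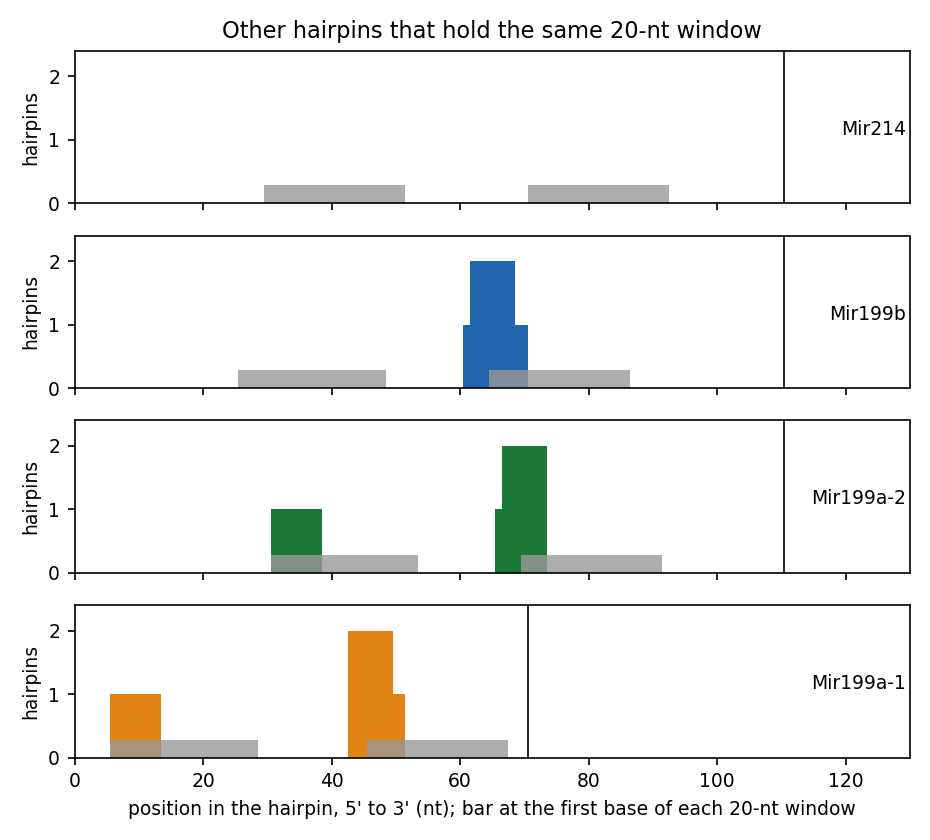
Number of other microRNA hairpins (y axis) that hold the same 20-nucleotide window, drawn at the first base of each window along the 4 hairpins (x axis, nucleotides from the 5′ end). Grey bars mark the arms, black lines the end of the hairpin. Mir214 shows no shared window, Mir199b shares windows at its 3p arm only, and both Mir199a genes share windows at both arms.

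Reads that mapped to several places are set apart in the deposited tables and credited to no gene. They numbered 2892656 in replicate 1, or 27.2% of its reads, and 2310423 in replicate 2, or 23.7%. Gene counts came to 4525636 and 3604284, and levels are given as CPM, counts per 1000000 gene counts. Each count covers a whole hairpin, so 5p and 3p strands were not separated, and how well each strand was recovered in the libraries was not measured. The counts of the miR-199 genes accordingly leave out reads that matched several copies, while those of Mir214 rest on a hairpin with no shared window. Mismatch settings are not given, and whether reads of 1 miR-199 copy were credited to another was not tested. The miR-199 counts are therefore not strict lower limits. CPM values hold for assigned reads only and are no limits either, since reads newly assigned to any gene would also enlarge the total.

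All 4 genes were detected, meaning 10 CPM or more in both libraries, where 14.5% of all gene rows were. In assigned reads Mir214 was by far the highest of them. It stood at 45737 CPM in replicate 1 (206987 counts) and 56376 CPM in replicate 2 (203195 counts), a mean of 51056 ± 7523 (SD, n = 2). It ranked 4 of 1973 by the mean, 5 in replicate 1 and 4 in replicate 2, and held 5.11% ± 0.75 of all gene counts.

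Mir199b, the copy with its own 5p sequence, had the highest assigned level among the miR-199 genes. It stood at 2053 CPM in replicate 1 (9292 counts) and 1782 CPM in replicate 2 (6422 counts), a mean of 1917 ± 192, rank 71. Mir199a-2, the partner of Mir214 in Dnm3os, gave 651 CPM (2946 counts) and 451 CPM (1625 counts), a mean of 551 ± 141, rank 118. Mir199a-1 gave 32.3 CPM (146 counts) and 28.9 CPM (104 counts), a mean of 30.6 ± 2.4, rank 252. The order of the 4 genes was the same in both libraries, and no value of one gene overlapped a value of another. Even the lowest, Mir199a-1 in replicate 2, with an exact Poisson interval of 23.6 to 35.0 CPM (95%, counting error only), lay above the 0.832 CPM that a count of 0 (up to 3 counts) allowed in that library.

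**Figure D2:**
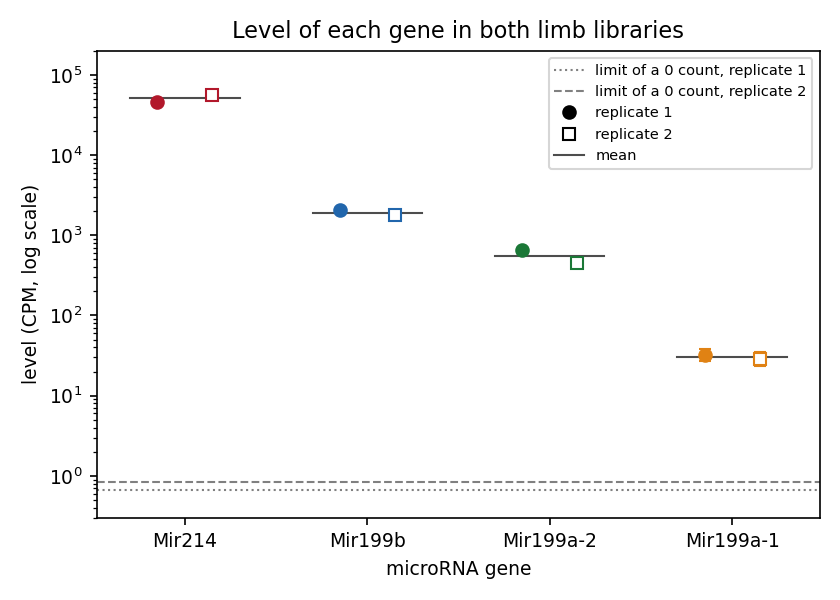
Level of the 4 genes (CPM, log scale) in replicate 1 (filled circles) and replicate 2 (open squares), with 95% Poisson intervals and the mean as a line, above the limits that a count of 0 allows (dotted and dashed lines). Mir214 lies near 51056 CPM, and the miR-199 genes follow in the order Mir199b, Mir199a-2 and Mir199a-1.

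Within a library, where depth cancels, Mir214 exceeded Mir199b 22.3-fold in replicate 1 (exact 95% interval from counting error, 21.8 to 22.7) and 31.6-fold in replicate 2 (30.9 to 32.4). Over Mir199a-2 the ratio was 70.3 (67.8 to 72.9) and 125 (119 to 131). Over Mir199a-1 it was 1418 (1205 to 1679) and 1954 (1612 to 2391). Against the 3 miR-199 genes summed, which gave 2499 ± 336 CPM, the ratio was 16.7 (16.4 to 17.0) in replicate 1 and 24.9 (24.4 to 25.5) in replicate 2, a mean of 20.8 ± 5.8. The excess of Mir214 was thus larger than the spread between the libraries for each copy and for their sum. No p-value is attached, since a paired exact test over 2 libraries cannot go below 0.5, two-sided.

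These ratios hold for assigned reads only. In replicate 1, 6.73% of the reads that mapped to several places would have brought the miR-199 sum level with Mir214, and in replicate 2 8.44% would have. How many of those reads came from miR-199 is not given by the tables, so the order of the 2 families by molecules made was not determined. The order of the 3 miR-199 genes has the same limit.

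Among the miR-199 counts, Mir199b held 75.0% of replicate 1, with an exact 95% interval of 74.3 to 75.8, and 78.8% of replicate 2, with one of 77.9 to 79.7. Mir199a-2 held 23.8% (23.0 to 24.5) and 19.9% (19.1 to 20.8). Mir199a-1 held 1.18% (0.996 to 1.39) and 1.28% (1.04 to 1.54). Mir199a-2 and Mir199a-1 make identical mature strands, yet in assigned counts Mir199a-2 stood above Mir199a-1 by 20.2 times in the first library and by 15.6 times in the second. Mir199b exceeded Mir199a-2 by 3.15 and 3.95 times. The annotated hairpin of Mir199a-1 is shorter, 70 bases against 110, and ends 3 bases past its 3p strand, so fewer of the windows that tell it apart lie inside it (34 against 75). The part of hairpin length and shared sequence in these differences was not tested.

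Among genes with at least 2 listed mature strands that share every one with another gene, Mir199a-2 and Mir199a-1 had the highest levels in assigned reads. A read that matches several genes is credited to none, so the values in this paragraph do not rank genes by molecules made. Of the genes with at least 2 mature strands listed, 16 shared every listed strand with another gene. Among these, 12 had 0 counts in both libraries and 3 (18.8%) were detected, namely Mir199a-2, Mir199a-1 and Mirlet7c-2, the last at 13.4 CPM. Of 514 genes with no shared strand 192 (37.4%) were detected, and of 53 genes with some shared 32 (60.4%) were. Above the mean level of Mir199a-2 lay 0 of the 16, of which it is the highest, 7 of the 53 and 90 of the 514. The highest of the 53 was Mir92-1 at 6319 CPM. Mir199b is in none of these groups, since only its 3p strand is listed, which both Mir199a genes share. At 1917 CPM it stood above both of them and below Mir92-1.

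**Figure D3:**
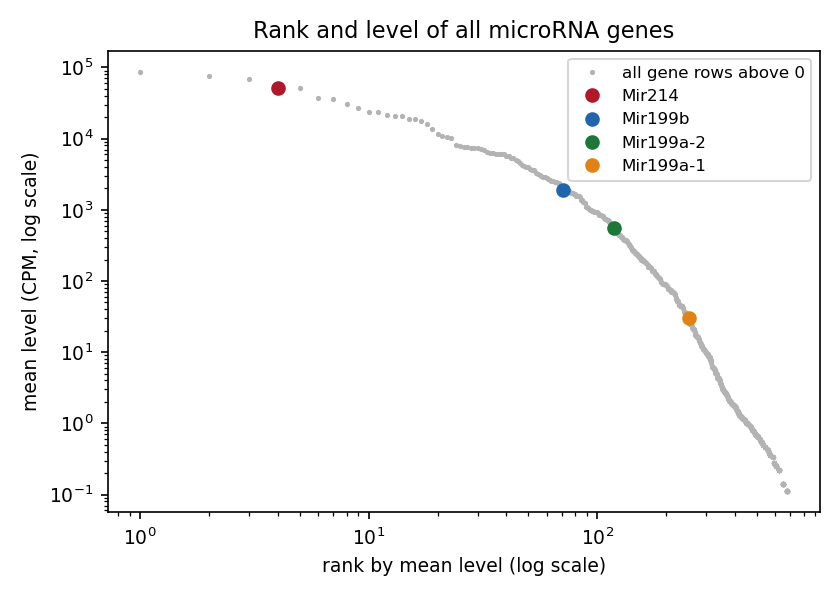
Mean level (y axis, CPM, log scale) against rank (x axis, log scale) for all gene rows above 0, with the 4 genes in colour. Mir214 sits at rank 4, and Mir199b, Mir199a-2 and Mir199a-1 sit at ranks 71, 118 and 252.

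The neighbours in this order show how finely it was resolved. Above Mir214 stood Mir322 at 68344 ± 659 CPM, higher in both libraries. Directly below was Mir17 at 50945 ± 7438 CPM, which was the higher of the pair in replicate 1 only, so these 2 were not told apart. Mir199b lay below Mir708 (2094 ± 214 CPM) in both libraries and was not separated from Mir101b (1876 ± 102 CPM). Mir199a-2 was separated neither from Mir300 (572 ± 6.4 CPM) nor from Mir340 (525 ± 38 CPM), and Mir199a-1 neither from Mir449a (30.9 ± 1.8 CPM) nor from Mir7689 (30.2 ± 6.6 CPM). By distance in log2(CPM + 1) over the 2 libraries, the genes most like Mir214 were Mir17 (0.42), Mir322 (0.65) and Mir99a (0.69). With 2 libraries this likeness is one of level, and Mir17 differed between the libraries in the opposite direction.

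In the genome, all 4 genes lie on the strand opposite to a dynamin gene and in no annotated dynamin exon. Dynamins are GTPases that pinch vesicles from membranes. Mir214 and Mir199a-2 lie within Dnm3 on chromosome 1, spanned by 4 of its 12 transcripts, Mir199b within Dnm1 on chromosome 2, spanned by 10 of 17, and Mir199a-1 within Dnm2 on chromosome 9, spanned by 10 of 14. Mir199a-2 and Mir214 are 5444 bp apart on the same strand. Both lie in Dnm3os (chr1:162217623-162225550, plus strand), Mir199a-2 at 191 bp and Mir214 at 5745 bp from its start. Of the 6 Dnm3os transcripts, 2 carry both hairpins whole inside a single exon. An exon of 5 transcripts overlapped Mir199a-2, and an exon of 3 overlapped Mir214. Although the 2 hairpins share these transcripts, their assigned counts differed by the 70.3 and 125 times given above. For Mir199b and Mir199a-1 the annotation listed no host on their own strand.

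**Figure D4:**
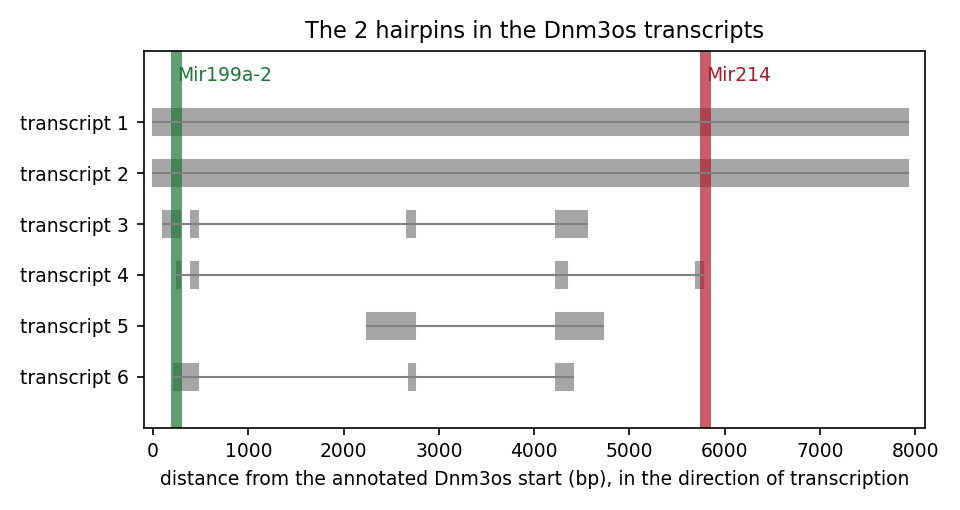
The 6 annotated Dnm3os transcripts by distance from the gene's start (x axis, bp), with exons as boxes and the hairpins Mir199a-2 and Mir214 as coloured bars. The upper 2 transcripts run through both hairpins as a single exon.

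Mir214 was higher in replicate 2 and the miR-199 genes were lower there, with Mir199a-2 the furthest apart. Log2 ratios of replicate 2 over replicate 1 (0.5 counts added) had an SD of 0.36 and a median of 0.01 over the 298 genes whose mean reached 10 CPM. Mir214 had a log2 ratio of 0.30 (exact 95% interval from counting error, 0.29 to 0.31). Mir199b stood at -0.20 (-0.25 to -0.16), Mir199a-2 at -0.53 (-0.62 to -0.44) and Mir199a-1 at -0.16 (-0.54 to 0.21), where the interval includes equality. The central 95% of the 298 genes ran from -0.62 to 0.82, so Mir199a-2 lay near its lower edge. Of the 4, 0 were apart by over 1.5 times, against 11.1% of the 298 genes, a share too small for 4 genes to be read against. Scaled to all reads of the library, Mir199a-2 passed 1.5 times, with a log2 ratio of -0.73. The counting interval left out equality for 3 of 4 members and for 62.4% of the 298 genes, and 3 of 4 were lower in replicate 2 against 49.7%. Since Mir214 and miR-199 went in different directions, their ratio differed by 1.49 times between the libraries, and that of Mir214 to Mir199a-2 by 1.78 times. The share of reads that mapped to several places was also lower in replicate 2, at 23.7% against 27.2%. Unmapped reads were more there, 3171608 of 9738708 reads against 2537470 of 10646293 in replicate 1. The part of either in these differences was not tested. These intervals compare 2 libraries with counting error, not conditions, and PCR copies of 1 molecule are counted more than once in them.

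**Figure D5:**
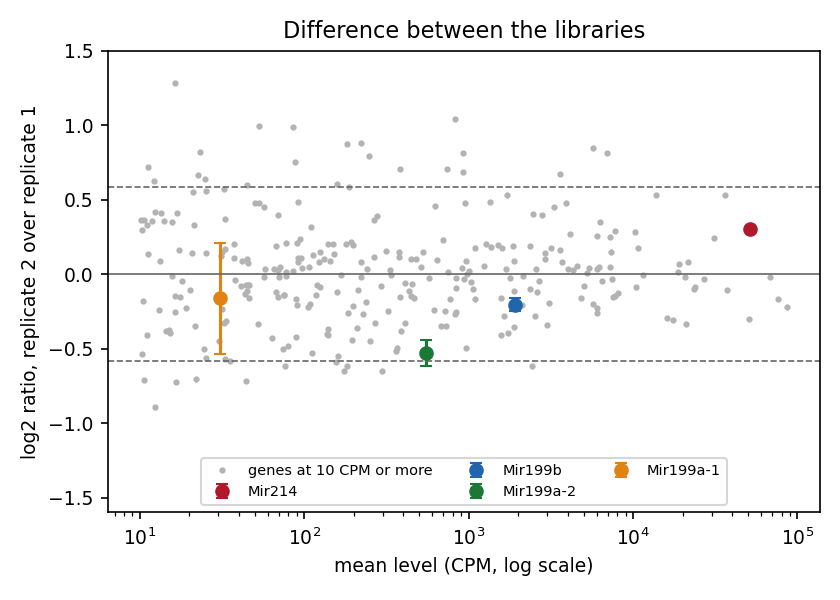
Log2 ratio of replicate 2 over replicate 1 (y axis) against mean level (x axis, CPM, log scale) for the 298 genes at 10 CPM or more (grey) and the 4 genes with 95% counting intervals. Dashed lines mark 1.5 times, and all 4 genes lie between them, Mir214 at 0.30 and the miR-199 genes below 0.

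The mesenchymal label could be set only against other microRNAs, since the tables hold no messenger RNA. The 4 genes together held 4.85% of the counts in replicate 1 and 5.86% in replicate 2, of which Mir214 made up 94.4% and 96.1%. MicroRNAs of other limb cell types were present in the same libraries. Cartilage markers (Mir140, Mir455) held 2.60% and 2.52%, the 7 ectoderm and epithelium markers 1.86% and 1.90%, endothelium (Mir126a) 1.85% and 1.94%, the smooth muscle and pericyte markers 0.532% and 0.535%, and 5 skeletal muscle rows 0.225% and 0.254%. Only 2 of the 5 muscle rows were detected and 2 were at 0 in both libraries. Mir206, at 2196 CPM in replicate 1 and 2498 CPM in replicate 2, held most of the muscle counts. Red blood cell markers held 0.0257% and 0.0180%, and white blood cell markers 0.0581% and 0.0655%. The neural list named copies of Mir124a and Mir9 only, so it does not stand for all neural microRNAs. Of its 5 rows 0 were detected and 4 were at 0 in both libraries, 3 of them rows of Mir124a. The remaining row, Mir9-3, shares every listed strand with another gene. Reads that match several gene copies are credited to none, so low counts in neural or muscle rows do not show that those microRNAs were absent. All these shares hold for assigned reads only. In whole limbs, fewer cells of a type and less RNA per cell cannot be told apart, so these shares do not place Mir214 in a cell type.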

How the data were processed

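The deposited tables hold raw counts per microRNA gene in 3 count columns without a header. The first equals the sum of the other 2, which were read as own strand and opposite strand because nearly all counts fall in the former. Per the README deposited with each library, they were made on mm10 with GENCODE M4. Which aligner, counter, trimming and mismatch settings were used is not given in the sources used here. Own-strand counts were used, and totals exclude 4 rows for reads without a gene, which held 57.5% of the reads in replicate 1 and 63.0% in replicate 2.

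Identifiers were matched without version to GENCODE M21, which annotates the same assembly, and 1894 of 1973 rows matched. Of all rows 869 had a hairpin in the RefSeq table. No genome sequence was searched, so copies outside annotated hairpins were not looked for. CPM and exact intervals (scipy 1.17.1, Python 3.11.15) were computed for both libraries, and hairpins were aligned with Biopython 1.88. The interval of the log2 ratio between libraries was checked on simulated counts that held counting error only. The intervals of ratios within a library were not checked in this way. Alternatives used edgeR 4.0.16 and DESeq2 1.42.0 in R 4.3.3 for scaling only. The labels do not say whether the pools came from separate litters. Genes besides the 4 members were named by rule: the row directly above and below in level, the 3 nearest to Mir214, seed sharers and cell type markers. The highest genes with shared strands were named after their values were seen. The members and lists were chosen with earlier results of these data known.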

Additional observations from a re-analysis of the deposited data

Results flagged for a closer look

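On the strand opposite to Mir214, the strand of Dnm3, lay 5 counts in replicate 1, above the 3 counts that a count of 0 allows, and 0 in replicate 2. They were 0.00242% of the counts on both strands of this row. Over all gene rows, opposite-strand counts came to 110653 in replicate 1 and 96810 in replicate 2. Whether the 5 counts differ from stray reads was not tested. The 3 miR-199 genes had 0 opposite-strand counts in both libraries.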

How the results depend on the processing

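With both strands counted, or with trimmed-mean or DESeq2 scaling, the levels moved by less than the replicate SD. Scaled to all reads of the library, levels per 1000000 reads were 20153 for Mir214, 766 for Mir199b, 222 for Mir199a-2 and 12.2 for Mir199a-1, and the log2 ratios between libraries became 0.10, -0.40 and -0.73 for the first 3, which takes Mir199a-2 past 1.5 times. For Mir214 that log2 ratio was 0.32 with trimmed-mean scaling, 0.28 without its filter and 0.28 with DESeq2 size factors. With 5% of the reads that map to several places given to miR-199, the ratio of Mir214 to the miR-199 sum was 1.48, and it fell below 1 with 10% (0.768) and with 100% (0.0794). The first 2 shares are arbitrary settings, and the last is a limit. With windows of 24 nucleotides, 90.8% of windows in Mir199a-2 and 80.9% in Mir199a-1 were their own, and with 18 nucleotides 77.4% and 60.4%. At 100 CPM, 3 of 4 genes were detected.

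Leaving out either replicate gave ranks of 4 to 5 for Mir214, 72 to 75 for Mir199b, 112 to 123 for Mir199a-2 and 248 to 252 for Mir199a-1. No paired analysis was possible because both libraries belong to 1 group, so no 2 groups share replicate numbers, and the genes were compared within each library. Mir199a-1 had the fewest counts of the 4 genes and the widest interval between libraries, which includes equality.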
